A study of Mus musculus with 20 samples.

Results

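The messenger RNAs of the proteins that build the cytosolic ribosome were followed in mouse liver across 2 genotypes and 2 diets. A gene was taken when its symbol begins with Rpl or Rps and a digit, or is Rpsa, Rplp0, Rplp1 or Rplp2, and when the array's probe table pairs at least 1 probe set with that gene alone. Rps6k kinases, Rps19bp1, genes whose symbols mark them as ribosomal protein-like and pseudogenes were left out. This gave 43 genes of the 18193 genes read by a single-gene probe set, and the probe set with the highest mean log2 value over all 20 arrays stood for each gene. The brightness of the probe sets is the only measured value in that choice. Of the 43 genes 42 gave a signal, and the probe set of Rps16 lay at the floor of 16 intensity units on every array. 34 genes had a mean signal over 1000 units, and 9 were dimmer: Rpl12, Rpl14, Rpl27a, Rpl37, Rpl39, Rps16, Rps25, Rps27 and Rps6.

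The livers came from mice lacking the lipogenic enzyme stearoyl-CoA desaturase 1 (Scd1-/-) and from wild-type mice, each kept on chow or on a very low fat (VLF) diet, TD03045 from Harlan Teklad. Each of the 4 groups holds 5 arrays of 5 individual livers, hybridised to the Affymetrix Mouse 430 2.0 array as biotin-labelled cRNA made from total RNA. The labels name the genotype as Scd1-/- with no further allele or driver, and the sources used here do not give age, sex, strain or length of feeding. The Scd1 enzyme makes monounsaturated fatty acids, which a VLF diet supplies poorly, and the design asks how each genotype responds to that diet.

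The ribosome is built from a small (40S) and a large (60S) subunit, each a folded ribosomal RNA with ribosomal proteins on it. Cells make the proteins in step with the ribosomal RNA, because surplus ribosomal proteins are degraded. Their messenger RNAs usually begin with a cytosine followed by a run of pyrimidines, the 5' terminal oligopyrimidine (TOP) tract, through which mTORC1 and the RNA-binding protein LARP1 control their translation and stability. In liver the supply of ribosomes follows feeding and growth, and it rises in regenerating tissue. Messenger RNA levels as measured here do not report on translation.

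The sequences around the annotated transcription start are shown first, since the TOP tract is the feature that these genes are known to share and that the choice by symbol did not use. RefSeq (build GRCm38.p6) gave a promoter entry for 38 of the 43 genes. A cytosine with at least 4 more pyrimidines stood exactly at the annotated start in 8 of the 38 (21.1%), against 2.93% of 14453 genes on the array and 2.51% of 32851 promoters in the table. The next 6 lines give 15 bases before and 15 bases from the annotated start on, 5' to 3', with the pyrimidine tract in capitals: first 4 genes with a tract at the start, then 2 strong responders in which none was found within 10 bases of it.
Rpl35 (chr2:39005117-39005146, minus strand): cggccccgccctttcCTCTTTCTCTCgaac
Rplp2 (chr7:141447636-141447665, plus strand): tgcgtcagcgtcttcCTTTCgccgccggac
Rpl14 (chr9:120571502-120571531, plus strand): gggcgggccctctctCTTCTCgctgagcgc
Rps18 (chr17:33955651-33955680, minus strand): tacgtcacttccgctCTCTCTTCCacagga
Rpsa (chr9:120127751-120127780, plus strand): gtgggttatttaaggacgtcatttccggcc
Rplp0 (chr5:115559452-115559481, plus strand): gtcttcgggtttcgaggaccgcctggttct
The other genes with a tract exactly at the start were Rpl38, Rps10, Rps27 and Rps6. Allowing the tract to begin up to 10 bases on either side gave 23 of 38 genes (60.5%), against 36.4% of array genes. An annotated start can differ from the start used in liver by a few bases, so a window without a tract says nothing of the messenger RNA itself.

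The same 300-base windows (250 before and 50 after the start) were searched on both strands for letters of 5 common promoter elements. CCGGAAG, the core of sites for Ets-family factors such as GABP, stood in 19 of 38 genes (50%), against 15% of array genes and 8.86% of all promoters. The YY1 letters AAGATGGC were in 3 genes (7.89%, against 4.07% of array genes). GGGCGG, the Sp1 box, was in 57.9% of the genes and 57.3% of array genes. CACGTG, an E-box read by Myc among others, was in 10.5% and 10.2%, and TATAAA in 13.2% and 11.5%. None of these letter strings holds another of the list. Among genes that rose strongly in knockout VLF livers, the Ets letters stood in Rpl35, Rpsa and Rps25 but not in Rpl12, Rpl14 and Rps19. They also stood in Rps2, Rps6, Rpl27a and Rpl39, which did not pass the test there. As an example, the 250 bases before the start of Rpl41 (chr10:128549169-128549418, minus strand) are given with the Ets and Sp1 letters in capitals.
Rpl41: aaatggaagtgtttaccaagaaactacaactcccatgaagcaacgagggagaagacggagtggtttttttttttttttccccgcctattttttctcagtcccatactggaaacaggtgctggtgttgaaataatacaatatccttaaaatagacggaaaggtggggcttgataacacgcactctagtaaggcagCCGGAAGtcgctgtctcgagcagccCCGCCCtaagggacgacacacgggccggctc
These shares are descriptions and were not tested, and a match is not a bound site.

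Scd1 itself read 27.1 to 57.9 units in the 10 knockout livers and 6496 to 20349.8 in the 10 wild-type livers, as labelled. 2 arrays stood apart. Knockout, chow array 3 had 6556 units of Lcn2, an acute phase protein, against 158 to 249 on the other 4 arrays of its group. Wild type, VLF array 3 had Xist at the floor while the other 19 arrays read it at 1229 to 1937, and the Y-linked Eif2s3y was at the floor on all 20. The 3' to 5' ratio of the actin control probe sets, a measure of RNA integrity, was lowest in knockout VLF livers (1.82 ± 0.11, SD, n = 5), against 2.19 ± 0.20 in wild-type VLF, 2.25 ± 0.12 in knockout chow and 2.70 ± 0.24 in wild-type chow livers. Knockout VLF differed from wild-type VLF in it by a two-sided exact permutation test (p = 0.0159, n = 5 and 5). The actin ratio was also lower in knockout than in wild-type chow livers (two-sided exact permutation test, p = 0.00794, n = 5 and 5). In wild-type livers it was lower on the VLF diet than on chow (two-sided exact permutation test, p = 0.00794, n = 5 and 5). The Gapdh ratio was 1.29 in knockout VLF, 1.32 in wild-type VLF, 1.37 in knockout chow and 1.55 in wild-type chow livers. The VLF groups did not differ in it (two-sided exact permutation test, p = 0.508, n = 5 and 5).

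On the VLF diet, knockout livers held more messenger RNA of most of the ribosomal proteins measured. Of the 43 genes 38 rose and 0 fell (limma, adjusted p under 0.05 over all probe sets), where 19.2% of all genes rose and 23% fell. The median change was 0.34 on the log2 scale, 1.27-fold, against -0.02 over all 18193 genes, and single genes ran from -0.03 to 1.19. With arrays centred on the hybridization controls in place of quantile normalization the median was 0.58, against 0.10 over all genes. In 36 genes every knockout array lay above every wild-type array, against 14.6% of all genes. The rise was modest gene by gene: 6 genes passed 1.5-fold and 1 passed 2-fold. Among the 34 bright genes 33 rose, with a median of 0.36.

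**Figure D1:**
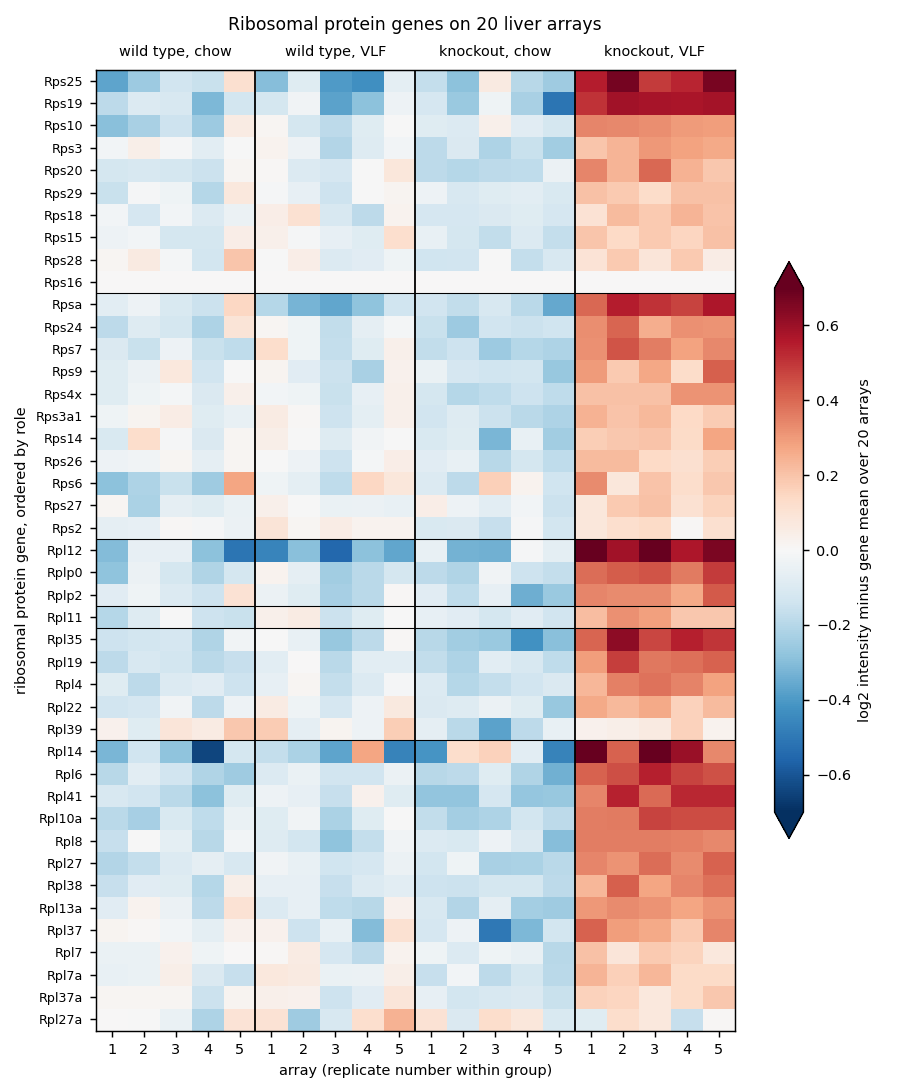
Heat map of the log2 intensity of each of the 43 genes (vertical axis, ordered by place in the ribosome) on each of the 20 arrays (horizontal axis, 5 per group), minus the gene's mean over the arrays; Rps16 is blank because it lay at the floor. The 5 knockout VLF columns are red for almost every gene, and the other 15 columns are near white or blue.

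Averaged over the 34 bright genes, the 5 knockout VLF arrays lay 0.27 to 0.31 above the genes' own means on the log2 scale. The other 15 arrays lay between -0.21 and 0.00, and no array of another group reached the knockout VLF range. Within this group the arrays spread over less than the arrays of any other group.

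Markers of several other cell types and the actin ratio differed in the same contrast, in which 19.2% of all genes rose and 23% fell. Of 12 macrophage markers 11 rose and 0 fell, and their summed signal was 15664 to 22053 units in knockout VLF against 4692 to 5668 in wild-type VLF livers. Stellate cell markers rose in 9 of 12 and fell in 1 (6208 to 8146 against 3195 to 4287 units). Proliferation markers rose in 11 of 11 (2182 to 3101 against 936 to 1447 units). Neutrophil markers rose in 3 of 7 and fell in 1 (985 to 5086 against 429.96 to 540 units), and cholangiocyte markers rose in 3 of 8 with none lower (626 to 784 against 443 to 554 units, Cftr at the floor in both). Lymphocyte markers rose in 1 and fell in 2 of 11 (745 to 900.2 against 651 to 777 units, Cd2 at the floor in both). Both lymphocyte counts are below the shares over all genes. Sinusoidal endothelial markers rose in 1 and fell in 5 of 10 (2909 to 4178 against 3118 to 3697 units), and hepatocyte markers rose in 1 and fell in 4 of 11 (132197 to 138531 against 142215 to 145294 units). Their part in the ribosomal protein result was not tested, and more RNA per cell cannot be told apart from a change in the cells sampled. With the actin ratio as a covariate 35 of the 38 rises kept their call, and those of Rpl7, Rpl7a and Rps27 were lost. Without the 2 arrays that stood apart, 37 of 38 kept it and Rps28 did not. Rps28 (log2 0.15 ± 0.05, standard error) was also not called when any 1 of 4 arrays was left out: 2 and 4 of knockout VLF, 3 and 4 of wild-type VLF.

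The 40S subunit reads the messenger RNA. Of its 21 genes 18 rose, with a median of 0.22: 9 of 10 in the head and 9 of 11 in the body and platform. Rpsa, an assembly-linked protein also known as a laminin receptor, read 6014, 6672, 6461, 6324 and 6751 units in the 5 knockout VLF livers. In wild-type VLF livers it read 3972, 3639, 3544, 3752 and 4143 units. All knockout arrays lay above all wild-type arrays, and the change was log2 0.76 ± 0.06, adjusted p = 1.32e-08. Rps19, the head protein mutated most often in Diamond-Blackfan anaemia, read 4704, 4978, 4932, 4922 and 4958 units in knockout and 3039.6, 3249, 2558, 2714 and 3224 units in wild-type VLF livers. Its change was log2 0.73 ± 0.08, adjusted p = 6.99e-07, and the groups did not overlap.

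Rps25, a head protein that viral internal ribosome entry sites depend on, was dim in all groups. It read 67.3, 73.2, 64.6, 66.5 and 72.8 units in knockout VLF livers, against 37.3, 43.3, 35.0, 34.2 and 43.8 in wild-type VLF livers. The groups did not overlap and the change was log2 0.84 ± 0.09, adjusted p = 6.51e-07; the 1 multi-gene probe set that names Rps25 changed by 0.13 and was not called. Rps3, at the entry of the messenger RNA channel, rose from 4118 ± 247 to 5134 ± 145 units (SD, n = 5 each; log2 0.32 ± 0.04, adjusted p = 6.61e-06). Rps18, often used as a reference gene, rose from 5821 ± 478 to 6737 ± 251 units (log2 0.21 ± 0.05, adjusted p = 0.00155), with the highest wild-type array just above the lowest knockout array. Rps4x, the X-linked body protein, rose by log2 0.29 ± 0.04, adjusted p = 1.08e-05, and lost the call with the mean of its probe sets. The other probe set in that mean read 19.1 units in wild-type and 17.1 in knockout VLF livers. Among the other head genes, the rise was 0.39 for Rps10, 0.31 for Rps20, 0.22 for Rps29, 0.17 for Rps15 and 0.15 for Rps28. In the body and platform it was 0.38 for Rps24, 0.37 for Rps7, 0.34 for Rps9, 0.22 for Rps3a1, 0.21 for Rps14, 0.20 for Rps26 and 0.17 for Rps27. Rps27 is dim, and the 1 multi-gene probe set that names it changed by 0.04 and was not called.

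The 60S subunit joins the amino acids. Of its 22 genes 20 rose, with a median of 0.43. The 3 measured genes of the P stalk, the arm that recruits the translation factors, all rose. Rplp0, the stalk's base protein and a common reference gene in PCR work, read 7466, 7634, 7731, 7312 and 7997 units in knockout VLF livers. In wild-type VLF livers it read 5784, 5455, 4805, 4997 and 5215 units, below every knockout array. The change was log2 0.54 ± 0.05, adjusted p = 2.23e-07. Rplp2, one of the stalk's acidic proteins, rose from 4237 ± 295 to 5766 ± 232 units (SD, n = 5 each; log2 0.45 ± 0.06, adjusted p = 1.21e-05). Rpl12, at the base of the stalk, was dim and read 81.7, 63.6, 97.9, 62.5 and 66.7 units in knockout VLF livers, against 30.7, 34.6, 28.8, 34.6 and 32.9 in wild-type VLF livers. Its change was log2 1.19 ± 0.12, adjusted p = 2.63e-07, 2.27-fold and the only one past 2-fold, and the 2 multi-gene probe sets that name Rpl12 rose by 1.04 and 1.13.

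Around the exit of the peptide tunnel 4 of 5 genes rose. Rpl35, a protein of the tunnel rim where the signal recognition particle docks, read 6909, 8021, 7185, 7599 and 7356 units in knockout VLF livers. It read 5197, 5014, 4328, 4580.4 and 5238 units in wild-type VLF livers. The groups were well apart (log2 0.61 ± 0.06, adjusted p = 1.52e-07). Rpl19, also at the rim, rose from 4383 ± 207 to 6077 ± 292 units (SD, n = 5 each; log2 0.47 ± 0.04, adjusted p = 4.56e-08), and Rpl4, which lines the tunnel, rose by 0.38. Rpl11, which carries 5S ribosomal RNA into the subunit and can bind Mdm2 when assembly is disturbed, rose by log2 0.27 ± 0.05, adjusted p = 0.000111.

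Elsewhere on the 60S subunit 12 of 13 genes rose. Rpl41, the smallest protein of the ribosome, read 11270.2, 12882, 11679, 12787 and 12787 units in knockout VLF livers, and 8655, 8522, 7958, 9055 and 8383 in wild-type VLF livers. Its lowest knockout array lay above its highest wild-type array (log2 0.53 ± 0.05, adjusted p = 1.56e-07). Rpl14 was dim, at 66.3, 46.4, 62.4, 52.9 and 44.0 units in knockout VLF livers. In wild-type VLF livers it stood at 31.1, 29.9, 27.0, 42.2 and 25.2 units, and its highest array there came close to the lowest knockout array (log2 0.81 ± 0.16, adjusted p = 0.00052). Its 5 multi-gene probe sets rose by 0.40 to 0.54. Rpl13a, a reference gene that also takes part in silencing of inflammatory messenger RNAs, rose from 6028 ± 392 to 7979 ± 115 units (log2 0.41 ± 0.05, adjusted p = 8.28e-06). The remaining rises were 0.56 for Rpl6, 0.50 for Rpl10a, 0.49 for Rpl8, 0.43 for Rpl27, 0.42 for Rpl38, 0.37 for Rpl37, 0.18 for Rpl7, 0.16 for Rpl7a and 0.16 for Rpl37a. Rpl37 is dim, and of the 3 multi-gene probe sets that name it 2 rose, with changes from 0.01 to 0.47.

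**Figure D2:**
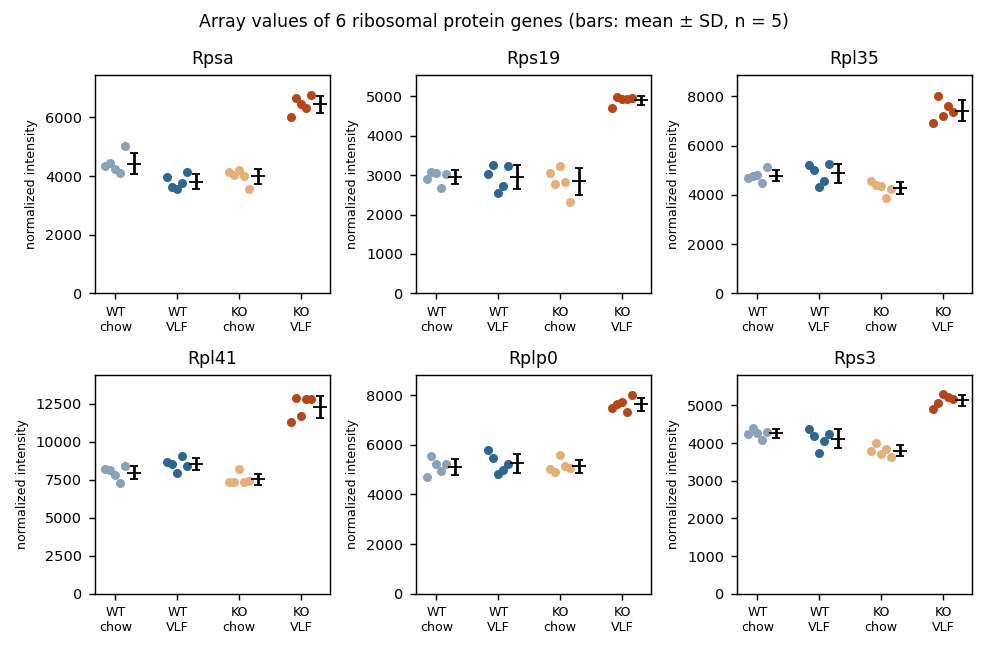
Normalized intensity (vertical axes, from 0) of 6 genes on each array (points) in the 4 groups (horizontal axes; WT wild type, KO knockout), with the mean and SD of 5 arrays beside them. For all 6 genes the knockout VLF points stand above the points of the other 3 groups; Rpsa reads 6444 ± 294 in that group.

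5 genes did not pass the test. Rps2, a bright gene at the messenger RNA entry, read 7328 ± 256 units in knockout and 7078 ± 149.5 units in wild-type VLF livers (SD, n = 5 each). The difference was log2 0.05 ± 0.03, adjusted p = 0.32, with a 95% interval of -0.02 to 0.12, below the median rise of the genes. Rps6, the S6 kinase substrate, differed by log2 0.19 ± 0.10, adjusted p = 0.138 (interval -0.01 to 0.40), and of the 20 fits that left out 1 array it passed in the 1 without wild-type chow array 5 (adjusted p = 0.0418). Rpl39 differed by 0.01 ± 0.07 and Rpl27a by -0.03 ± 0.09, and Rps16 lay at the floor. The last 4 are dim, and several multi-gene probe sets that name them did rise: 6 of 9 for Rps6, 1 of 1 for Rpl27a (0.33), 1 of 1 for Rpl39 (0.17) and 2 of 2 for Rps16 (0.33 and 0.44). With arrays centred on the hybridization controls 4 of the 5 passed as well, and with median scaling alone 1 did.

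**Figure D3:**
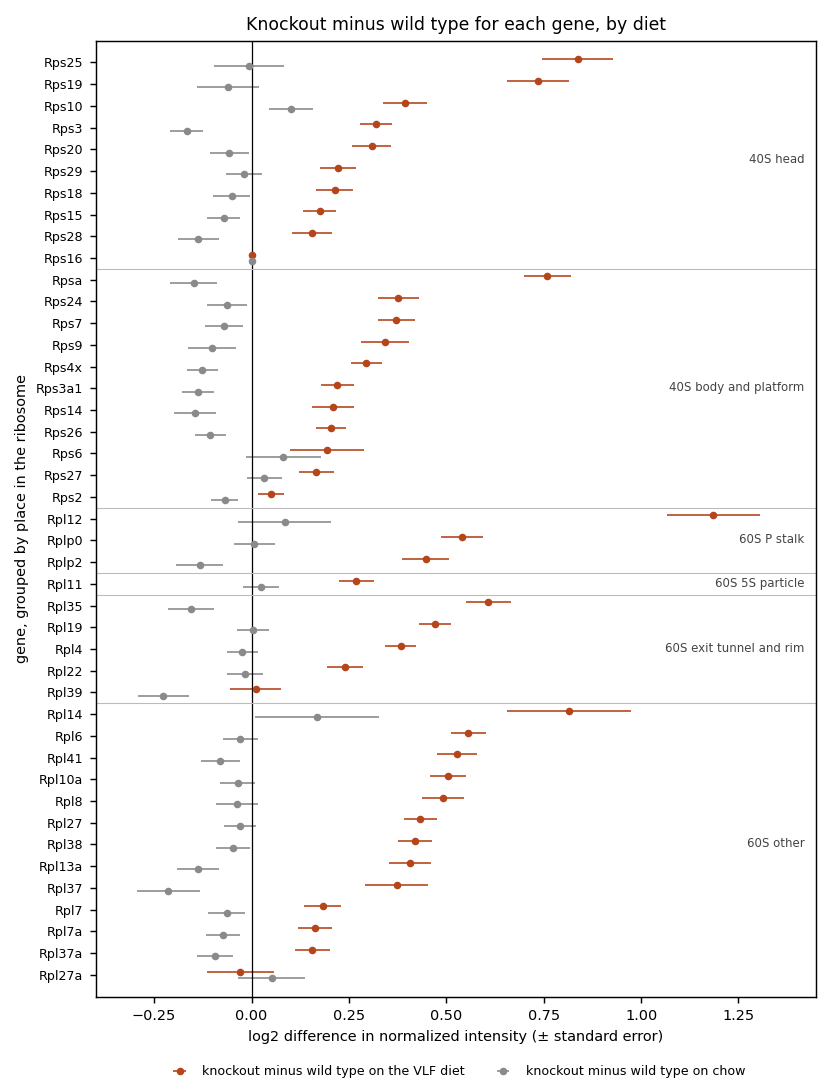
Log2 difference between knockout and wild type (horizontal axis) with its standard error for each gene (vertical axis, grouped by place in the ribosome), on the VLF diet (orange) and on chow (grey). Nearly all VLF points lie to the right of 0, with a median of 0.34, while the chow points lie around -0.06; Rps16 sits at 0 because it was at the floor.

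On chow the same genotype contrast gave no rise. Of the 43 genes 0 rose and 1 fell, where 1.23% of all genes rose and 1.7% fell. The median was -0.06, but it turned to 0.024 with median scaling alone and was -0.17 when arrays were centred on the hybridization controls, so no direction is given for the genes as a group. At an unadjusted p under 0.05 there were 12 genes lower and 0 higher in the knockout, where 14.8% of all genes were lower and 9.53% higher. With median scaling alone there were 0 lower and 3 higher, and with the hybridization controls 14 lower and 0 higher. The gene that fell was Rps3, which read 3790.5, 4009.6, 3701, 3855 and 3628 units in knockout chow livers. In wild-type chow livers it read 4240.4, 4414, 4277, 4081 and 4296 units, above every knockout array (log2 -0.17 ± 0.04, adjusted p = 0.0437). This call was lost in 13 of 20 fits that left out 1 array each (adjusted p 0.0304 to 0.123), and the arrays concerned are knockout VLF 4 and 5, knockout chow 1, 3, 4 and 5, wild-type VLF 2 and 5 and wild-type chow 1 to 5. Rps4x and Rps3a1 also had all 5 knockout arrays below the wild type, with changes of -0.13 and -0.14 that did not pass (3 genes with Rps3, against 3.67% of all genes). Rpsa read 3993 ± 263 units in knockout and 4429.8 ± 359 in wild-type chow livers (SD, n = 5 each), and Rplp0 5139 ± 263 and 5115 ± 321.

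In wild-type livers no gene passed the test for the diet. Of the 43 genes 0 rose and 0 fell (limma, adjusted p), where 0.786% of all genes rose and 0.781% fell, and the median was 0.03. At an unadjusted p under 0.05 there were 3 genes, 2 higher and 1 lower on the VLF diet, where 6.58% of all genes were higher and 8.19% lower. The lower one was Rpsa, at 3972, 3639, 3544, 3752 and 4143 units on the VLF diet and 4328, 4450.4, 4240.4, 4101 and 5029.5 units on chow, with 1 array from each side overlapping (log2 -0.22 ± 0.06, adjusted p = 0.0991). Rps2 was the 1 gene whose VLF arrays all lay above its chow arrays, against 1.85% of all genes (log2 0.07 ± 0.03, adjusted p = 0.417). Rplp0 differed by log2 0.04 ± 0.05, adjusted p = 1 and Rpl35 by log2 0.03 ± 0.06, adjusted p = 1.

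In knockout livers the VLF diet raised 40 of the 43 genes and lowered 0, where 17.1% of all genes rose and 17.7% fell. The median change was 0.44, 1.35-fold, against 0.00 over all genes; with arrays centred on the hybridization controls it was 0.78, against 0.27. In 40 genes every VLF array lay above every chow array (12.3% of all genes). All 34 bright genes rose, Rps2 among them (log2 0.19 ± 0.03, adjusted p = 0.000239). Rpl35 read 4552, 4399, 4346, 3888 and 4248 units in knockout chow livers, none of which came near the lowest VLF array (log2 0.79 ± 0.06, adjusted p = 5.8e-09). Rps19 stood at 3054, 2767, 3244, 2832 and 2319 units on chow and changed by log2 0.79 ± 0.08, adjusted p = 2.79e-07. Rpl12 changed by log2 0.95 ± 0.12, adjusted p = 4.13e-06, Rpl14 by log2 0.76 ± 0.16, adjusted p = 0.00112, Rps25 by log2 0.75 ± 0.09, adjusted p = 2.83e-06, Rpl41 by log2 0.71 ± 0.05, adjusted p = 4.06e-09 and Rpsa by log2 0.69 ± 0.06, adjusted p = 4.69e-08. The multi-gene probe sets that name the dim Rpl12 rose by 1.11 and 1.01. The 1 that names the dim Rps25 changed by 0.11 and was not called. Rpl27a, Rps6 and Rps16 did not pass. Of the 20 fits that left out 1 array, Rps6 (0.23, adjusted p = 0.0908) passed in 2, without knockout chow array 3 and without wild-type chow array 5 (range of adjusted p 0.0203 to 0.208). It also passed without knockout chow array 3 and wild-type VLF array 3 together (adjusted p = 0.0341) and with the hybridization controls (adjusted p = 0.00119). The calls of Rpl14 and Rps27 were lost with the actin covariate, and those of Rpl41, Rps24 and Rps9 without probe sets ending in _x_at or _s_at. Dim probe sets then stood for Rpl41, Rps24 and Rps9. In the same contrast macrophage markers rose in 9 of 12 and fell in 0 (5838 to 8346 units summed on chow), stellate cell markers rose in 9 of 12 and proliferation markers in 10 of 11. Of 11 hepatocyte markers 2 rose and 5 fell, and of 10 endothelial markers 1 rose and 5 fell. The actin ratio was lower on the VLF diet (two-sided exact permutation test, p = 0.00794, n = 5 and 5), and so was the Gapdh ratio (same test, p = 0.0159). The part of these markers and of the ratios was not tested. This contrast shares the knockout VLF arrays with the genotype contrast on that diet, so the 2 counts are not separate evidence. The knockout chow array with high Lcn2 lay within its group's range of -0.21 to -0.12 when averaged over the bright genes, and without it and wild-type VLF array 3 all 40 genes kept their call.

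The dependence of the knockout effect on diet was tested directly as an interaction. It was positive in 36 of the 43 genes and negative in 0, where 12.1% of all genes were called in each direction. The median interaction was 0.42, and 0.77 (all genes 0.29) with arrays centred on the hybridization controls. The largest were Rpl12 (1.10 ± 0.17, standard error, adjusted p = 8.9e-05), Rpsa (0.91 ± 0.09, adjusted p = 4.07e-07), Rps25 (0.84 ± 0.13, adjusted p = 8.13e-05) and Rps19 (0.79 ± 0.11, adjusted p = 4.12e-05). Rpl12 and Rps25 are dim. The multi-gene probe sets that name Rpl12 had interactions of 1.18 and 1.13. The 1 that names Rps25 had 0.19 and was not called. The genes not called were Rpl14 (0.65 ± 0.23, adjusted p = 0.0551), Rpl39, Rps2, Rps27, Rpl27a, Rps6 and Rps16. Of the 20 fits that left out 1 array Rpl14 passed in 6 (range of adjusted p 0.0149 to 0.107), those without knockout VLF array 2 or 5, knockout chow array 2 or 3, wild-type VLF array 4 or wild-type chow array 4. It also passed with the hybridization controls, a floor of 32, the brighter probe sets only and the mean of probe sets (adjusted p 0.00392 to 0.0408). With median scaling alone 29 of the 36 kept the call, and Rpl11, Rpl22, Rpl37a, Rpl7, Rps10, Rps15 and Rps29 did not. Without probe sets ending in _x_at or _s_at the calls of Rpl22, Rpl41, Rps20, Rps24 and Rps9 were lost, and with the mean of probe sets that of Rps4x. Dim probe sets then stood for Rpl41, Rps20, Rps24 and Rps9, and the second Rps4x probe set had group means of 17.1 to 19.4 units. In the same contrast 9 of 12 macrophage, 8 of 12 stellate cell and 10 of 11 proliferation markers had a positive interaction that passed and 0 a negative one. Of 11 hepatocyte markers 0 were positive and 4 negative, and of 10 endothelial markers 1 was positive and 3 negative. Their part was not tested.

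Where a gene had several single-gene probe sets, the bright ones mostly moved alike. The 43 genes have 95 such probe sets, and 22 genes have more than 1. Of the 30 other bright probe sets 29 rose in knockout VLF livers, by up to 0.70; for Rpl35 the 4 other bright probe sets rose by 0.61 to 0.70. Of the 22 dim ones 5 rose and 3 fell, and 4 of them lay at the floor on all arrays. Over all genes, each read by its brightest probe set, 19.2% rose and 23% fell in this contrast. The rises of the dim probe sets were near that share and their falls below it. Probe set names ending in _x_at or _s_at mark probes shared between similar transcripts, and 13 and 2 of the probe sets used end so. With such probe sets left out, 34 of the 38 risen genes still had a probe set. The call was kept in 30 of them and lost in Rpl22, Rpl41, Rps24 and Rps9. Rpl22 was then read by its other bright probe set. Dim ones stood for Rpl41 (17.5 units in wild-type and 21.5 in knockout VLF livers), Rps24 (58.9 and 53.2) and Rps9 (16 and 19.2).

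**Figure D4:**
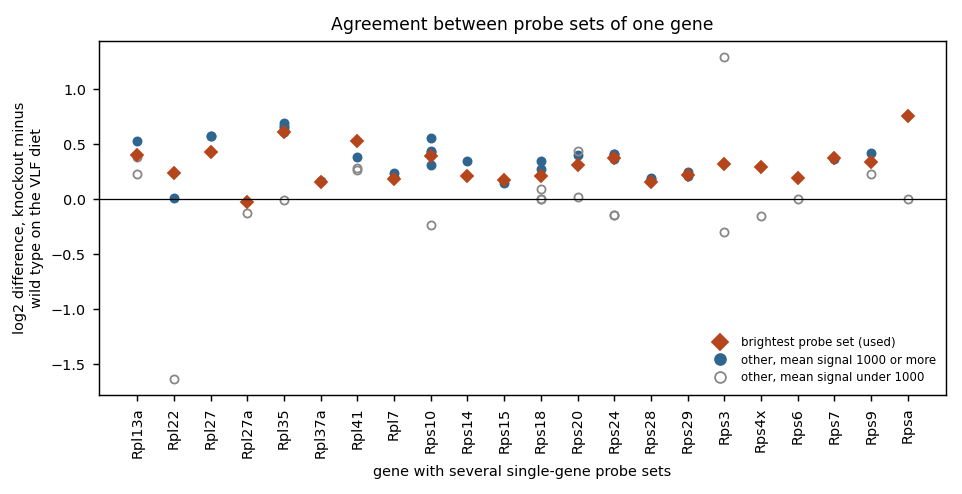
Log2 difference, knockout minus wild type, in VLF livers (vertical axis) for every single-gene probe set of the 22 genes with several (horizontal axis). Diamonds are the brightest probe sets, filled circles other probe sets with a mean of 1000 units or more and open circles dimmer ones; the dim Rpl22 probe set at -1.63 and the dim Rps3 probe set at 1.30 lie far from their partners.

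Rpl22, a 60S protein that also binds RNA outside the ribosome, gave probe sets that disagree. The brightest rose from 4167 ± 221 to 4916 ± 140.3 units (SD, n = 5 each; log2 0.24 ± 0.05, adjusted p = 0.000553). The second, also bright, changed by 0.01 ± 0.06, at a mean of 1151 units in wild-type and 1159 in knockout VLF livers. The third, a dim one, fell by 1.63, from 283 to 92.2 units (limma adjusted p = 1.41e-09). Its level was 259 units in wild-type and 269 in knockout chow livers, so of the 4 groups the knockout VLF livers held the low value. The direction for Rpl22 therefore depends on the probe set, and with the mean of its probe sets it was -0.46 on the VLF diet. Rps3 has a dim partner that rose by 1.30 (54.3 to 133 units) and another that fell by 0.30 (79.4 to 64.5 units).

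Many ribosomal protein genes are read on this array by probe sets that match several genes, often processed pseudogenes, and these were left out of the 43. 110 probe sets of this kind name at least 1 ribosomal protein gene. In knockout VLF livers 76 of them rose and 2 fell against the wild type, with a median of 0.29. Over all genes 19.2% rose and 23% fell, a share counted per gene and not per probe set. The 110 probe sets name 42 ribosomal protein genes, 27 of which have no single-gene probe set, among them Rpl3, Rpl5, Rpl10, Rpl15, Rplp1, Rps12, Rps13 and Rps23. The signal of such a probe set cannot be given to 1 gene.

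Relatives that the symbol choice leaves out moved too. Rpl22l1, a paralog that can replace Rpl22 in the ribosome, read 2856 ± 144 units in knockout VLF livers and 1213 ± 209 in wild-type VLF livers (SD, n = 5 each; log2 1.25 ± 0.11, adjusted p = 7.07e-08). On chow it read 1298 ± 107 in knockout and 1279.8 ± 213 in wild-type livers. Fau, which encodes the 40S protein eS30 fused to a ubiquitin-like domain, rose by log2 0.27 ± 0.05, adjusted p = 0.000707. Rpl7l1 rose by 0.31 and the p53-induced Rps27l by 0.20. Rpl3l, the muscle form of Rpl3, fell by 0.19 at 20.4 to 23.2 units, close to the floor, and Rpl39l was not called. Of 6 such relatives 4 rose and 1 fell, where 19.2% of all genes rose and 23% fell. The ribosomal proteins proper rose in 38 of 43.

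Other genes of the translation apparatus were counted in the same contrast, knockout against wild type on the VLF diet, from lists drawn up by function. In this contrast 19.2% of all genes rose and 23% fell. Ribosome biogenesis factors, which process ribosomal RNA and assemble the subunits, rose in 35 of 45 and fell in 1, with a median of 0.57. Nhp2, of the pseudouridylation complex, rose by log2 1.49 ± 0.06, adjusted p = 4.62e-12, nucleolin (Ncl) by log2 1.41 ± 0.07, adjusted p = 5.12e-11 and Gar1 by log2 1.12 ± 0.09, adjusted p = 2.85e-08. Initiation factors rose in 19 of 25 and fell in 2, with a median of 0.51. Among them Eif6, which keeps free 60S subunits from joining 40S and is needed for 60S biogenesis, rose from 518 ± 27.2 to 1909.9 ± 303 units (log2 1.87 ± 0.09, adjusted p = 4.08e-11), and Eif2s2, a subunit of eIF2, by log2 0.91 ± 0.08, adjusted p = 3.91e-08. RNA polymerase I genes rose in 6 of 14 and fell in 1, with a median of 0.21. Polr1e rose by log2 1.19 ± 0.16, adjusted p = 1.16e-05, and Znrd1 changed by log2 -0.44 ± 0.07, adjusted p = 9.57e-05.

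**Figure D5:**
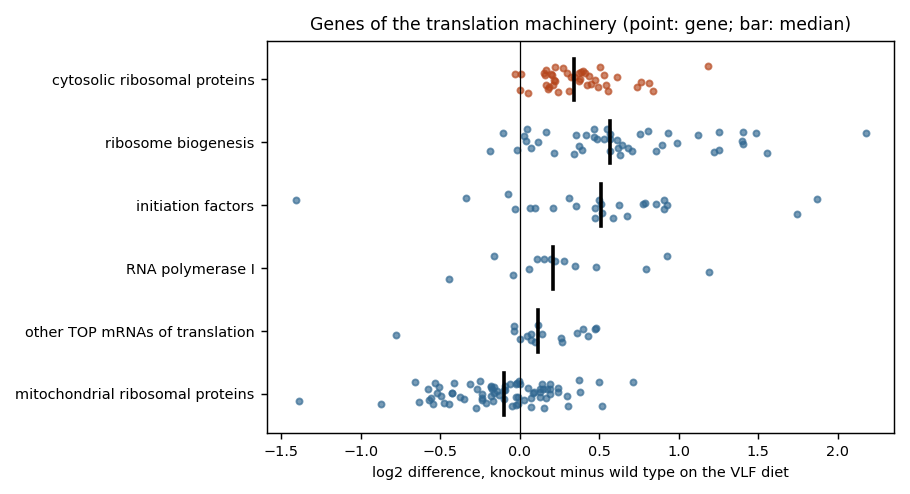
Log2 difference, knockout minus wild type, in VLF livers (horizontal axis) for each gene (point; vertical scatter has no meaning) in 6 groups of genes (vertical axis), with the median as a bar. The medians are 0.34 for the cytosolic ribosomal proteins, 0.57 for biogenesis, 0.51 for initiation factors, 0.21 for RNA polymerase I, 0.12 for other TOP messenger RNAs and -0.10 for mitochondrial ribosomal proteins.

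Of 17 other messenger RNAs with a TOP tract that encode translation proteins 7 rose, 1 fell and 9 did not pass, with a median of 0.12. Over all genes 19.2% rose and 23% fell. Tpt1 rose by log2 0.26 ± 0.04, adjusted p = 1.29e-05, Eif3f by log2 0.39 ± 0.06, adjusted p = 1.82e-05 and Pabpc1 by log2 0.43 ± 0.06, adjusted p = 1.85e-05. The elongation factors Eef1a1 (log2 -0.04 ± 0.04, adjusted p = 0.565) and Eef2 (log2 0.10 ± 0.06, adjusted p = 0.273) did not pass, and the initiation factor Eif4b changed by log2 -0.78 ± 0.09, adjusted p = 1.44e-06. In knockout livers, VLF against chow, 13 of the 17 rose and 1 fell, where 17.1% of all genes rose and 17.7% fell.

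Mitochondrial ribosomal proteins, which build the separate ribosome of the mitochondrion, gave another picture. 13 of 76 rose and 32 fell, with a median of -0.10, in the contrast in which 38 of 43 cytosolic ribosomal proteins rose and 0 fell. Over all genes 19.2% rose and 23% fell, so the rises were near that share and the falls above it. Their summed signal was 35771 to 37829 units in knockout VLF livers, below the 39701 to 41288 units of wild-type VLF livers. Mrpl48 changed by log2 -0.66 ± 0.05, adjusted p = 7.77e-09, Mrpl49 by log2 -1.39 ± 0.11, adjusted p = 2.2e-08 and Mrpl14 by log2 -0.88 ± 0.07, adjusted p = 2.57e-08. The difference between the lists was not tested.

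Among 19 genes that control translation by growth signals 5 rose and 4 fell, where 19.2% of all genes rose and 23% fell, with a median of -0.03. Both counts were near those shares, and the genes that fell are not named here. Myc, a transcription factor that drives ribosome biogenesis genes, read 206 ± 30.0 units in knockout VLF livers and 40.9 ± 5.42 in wild-type VLF livers (log2 2.33 ± 0.13, adjusted p = 1.65e-10). Eif4ebp1, the mTORC1 target that holds back cap-dependent initiation, rose by log2 2.05 ± 0.15, adjusted p = 3.54e-09. Ddit4, an inhibitor of mTORC1 made under stress, rose by log2 3.38 ± 0.42, adjusted p = 3.31e-06. Larp1 (log2 -0.12 ± 0.06, adjusted p = 0.156) and Mtor (log2 -0.11 ± 0.08, adjusted p = 0.354) did not pass. Phosphorylation, through which this pathway acts, was not measured.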

How the data were processed

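The deposited series table holds 45101 probe sets on 20 arrays as linear intensity, judged from the values; the submitters' processing notes name MAS5 and RMA without saying which made the values. After scaling of each array to one median, values under 16 were set to 16, then log2 and quantile normalization followed. Apart from 64 control probe sets, 45037 were tested with 1 mean per group (limma 3.58.1, R 4.3.3; lmFit, eBayes, Benjamini-Hochberg over all of them); 9117 at the floor on every array counted as unchanged. A call is an adjusted p under 0.05, ± on log2 values is the standard error, and printed units are normalized intensity, which is not compared between genes. The probe table gave 34945 probe sets 1 gene, 932 several and 9160 none. Steps were tested on simulated data; figures used Python 3.11.15 and matplotlib 3.10.9. Genes and lists were chosen with earlier results of these data known. Named are, per comparison, the 6 largest called rises and falls among the genes, 14 preset ribosomal protein genes, and up to 3 genes per list with the smallest adjusted p; Rps2, Rps28, Rpl39, Rpl27a, Eef1a1, Eef2, Larp1, Mtor, the relatives outside the symbol choice and the rises listed by role were named after their values were seen. The preset Rps27a, Rpl5 and Rplp1 had no single-gene probe set. Replicates are individual livers; their number limits the precision. Same-numbered arrays of different groups did not deviate together (30 pairs, r -0.25 to 0.27), so numbers were not taken to pair them.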

Additional observations from a re-analysis of the deposited data

Results flagged for a closer look

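In 12 of the 168 gene and group pairs with a measured spread, 1 array lay far from the other 4 of its group by Dixon's criterion, which chance meets in about 1 of 20 groups. On knockout chow array 5, Rpl22 read 3491 units (3914 to 4081 on the others), Rpl8 2718 (3097 to 3263) and Rps20 5036 (4515 to 4580). On knockout chow array 3, the array with high Lcn2, Rpl41 read 8182 units (7337 to 7401) and Rps10 6211 (5575 to 5738). On knockout chow array 2, Rps24 read 4898 units (5249 to 5325). In knockout VLF livers Rps19 read 4704 units on array 1 (4922 to 4978), Rps29 10997 on array 3 (11438 to 11600) and Rpl39 183 on array 4 (166 to 171). In wild-type chow livers Rpl37a read 6972 units on array 4 (7825 to 7853), and on array 5 Rps6 read 224 (152 to 166) and Rps20 5238 (4668 to 4794).

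The knockout effect differed between the diets by the limma interaction test in 36 of the 43 genes, each time higher on the VLF diet than on chow, where 12.1% of all genes were called in each direction. On the log2 scale the difference among genes of the 60S subunit was 1.10 for Rpl12, 0.76 for Rpl35, 0.61 for Rpl41, 0.59 for Rpl37, 0.59 for Rpl6, 0.58 for Rplp2, 0.54 for Rpl13a, 0.54 for Rpl10a, 0.53 for Rplp0 and 0.53 for Rpl8. It was 0.47 for Rpl38, 0.47 for Rpl19, 0.46 for Rpl27, 0.41 for Rpl4, 0.26 for Rpl22, 0.25 for Rpl37a, 0.25 for Rpl7, 0.25 for Rpl11 and 0.23 for Rpl7a. Among genes of the 40S subunit it was 0.91 for Rpsa, 0.84 for Rps25, 0.79 for Rps19, 0.49 for Rps3, 0.44 for Rps7, 0.44 for Rps9, 0.44 for Rps24, 0.42 for Rps4x, 0.37 for Rps20, 0.36 for Rps3a1 and 0.35 for Rps14. The smaller ones were 0.31 for Rps26, 0.29 for Rps10, 0.29 for Rps28, 0.26 for Rps18, 0.25 for Rps15 and 0.24 for Rps29.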

How the results depend on the processing

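For knockout against wild type on the VLF diet the count of rises was 37 to 39 and the median 0.32 to 0.37 when 1 array was left out; the median was 0.39 with median scaling alone and 0.58 (all genes 0.10) when centred on hybridization controls. For the diet in knockout it was 0.78 (all genes 0.27) with those controls, 0.36 with the mean of a gene's probe sets and 0.48 with the actin covariate, and for the interaction 0.77 (all genes 0.29) and 0.36 in the first 2 of these. With the mean of probe sets 1 gene, Rpl22, was called lower in each of these 3 contrasts (-0.46, -0.35 and -0.42), where its dim probe set that fell enters the mean. On chow the count of genes that fell, 1 in the report, was 0 with median scaling, hybridization controls, only the compared groups, the actin covariate, and without knockout chow array 3 and wild-type VLF array 3 (chosen after seeing the data), 2 with the mean of probe sets, and 0 to 1 when 1 array was left out; the median was 0.024 with median scaling and -0.17 with hybridization controls. Rps3 itself lost its call with the mean of probe sets, where 2 other genes were called. It also lost the call with the brighter probe sets only, where 1 other gene was called. With the replicate number as a block the count of genes that fell on chow was 0 (Rps3 adjusted p = 0.0673), and the block ended no rise on the VLF diet. The cause of these shifts was not tested. Signal over background limits the 9 dim genes.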
